A study of Sus scrofa with 8 samples.

Results

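The genes described here encode proteins of the connective tissue of the jejunal wall, which fibroblasts make and secrete. Members were the array's non-control probes whose RefSeq accession named CTGF (also called CCN2), COL1A1, COL1A2, COL3A1, DCN, LUM, SPARC, FN1, FBN1 or BGN. Of these 10 genes, 6 had such a probe and are described: CTGF, COL1A2, DCN, LUM, SPARC and FBN1. COL1A1, COL3A1, FN1 and BGN were not analysed here. The 6 genes are among 3216 symbols named on the array, and their 25 probes are among 43603 non-control probes. The probe with the highest mean log2 processed signal over all arrays stands for each gene.

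The study measured the middle jejunum, the main absorptive stretch of the small intestine, in 8 Duroc × Landrace piglets aged 25 days, with 1 piglet per 1-colour Agilent array. The suckling group (n = 4) stayed with the sow, and the weaned group (n = 4) was taken from the sow at 21 days, 4 days before sampling, and given a basal diet (14.48 MJ/kg digestible energy and 20.50% crude protein) and water at will. The piglets came from 4 litters, each treatment taking 1 piglet per litter, and the labels do not say which replicate came from which litter. Each RNA came from a gut segment of about 2 cm, so it mixes mucosa, muscle, vessels and nerves.

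In the gut wall, fibroblasts of the lamina propria and submucosa lay down fibres of type I and type III collagen, coat them with small leucine-rich proteoglycans and anchor them through glycoproteins. Transforming growth factor beta is the best known inducer of these genes, and CTGF is among its targets as well as a target of the YAP and TEAD transcription factors, which respond to tension in the matrix. The matrix of the villus core and crypt base supports the epithelium, and it is rebuilt as villi change shape.

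All suckling arrays lay on 1 slide and all weaned arrays on another, each slide with 1 scan, so for every comparison below an effect of the slide and one of weaning cannot be told apart. The array's 75th percentile of processed intensity was 245 in suckling replicate 1 and 317 to 395 in the other arrays, and the share of probes well above background ran from 67.6% to 71.0%. Over all tested probes 2 suckling arrays had their closest array in the weaned group: replicate 1 with weaned replicate 1 (r = 0.978) and replicate 3 with weaned replicate 3 (r = 0.983; probes are not independent). Results of the 6 genes are also given without suckling replicate 1, the array of the lowest 75th percentile, and list medians where leaving it out moved them by over 0.1 on the log2 scale. Of 41 defining markers fixed for fibroblasts and the other cell types of the gut wall, 23 had a probe, and all 23 were well above background on all 8 arrays. THY1 was the only measured one of the 4 fibroblast markers PDGFRA, PDGFRB, THY1 and VIM.

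All 25 probes of the 6 genes were well above background on all 8 arrays, none was saturated and none had an outlier spot. All 6 genes had a lower mean in weaned than in suckling piglets, with log2 differences from -1.02 for CTGF to -0.075 for FBN1 and a median of -0.38. Over all 30554 tested probes the median was 0.039, and 45.1% had a lower mean in weaned piglets. None of the 6 genes passed the threshold, a limma adjusted p under 0.05 over all tested probes; of all tested probes 0.177% passed. At an unadjusted limma p under 0.05, 1 of the 6 genes was called, beside 12.3% of all tested probes in either direction and 4.58% lower in weaned piglets. The count at that level depended on the processing: it was 3 of 6 with quantile normalization, the percentile over probes well above background, normexp, the deposited table, a trend and robust prior, array weights or the replicate block, where 4.61% to 8.32% of all tested probes were lower in weaned piglets. It was also 3 without suckling replicate 1 (beside 9.30%) or weaned replicate 4 (3.47%). The groups did not overlap for 1 gene, CTGF, and 2.83% of all tested probes had every weaned array below every suckling array. Less RNA per cell and fewer cells of a type cannot be told apart in such samples.

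CTGF encodes a secreted matricellular protein that links growth factor signals to matrix production. Its log2 signal, where 0 is the array's 75th percentile, was -1.73, -1.53, -1.19 and -0.61 in suckling replicates 1 to 4. In weaned replicates 1 to 4 it was -1.88, -2.55, -2.31 and -2.40. Each of the 4 weaned arrays lay below all 4 suckling arrays, but the gap between the nearest pair, suckling replicate 1 and weaned replicate 1, was small against the spread of the groups. The suckling mean was -1.26 ± 0.49 and the weaned mean -2.29 ± 0.29 (SD, n = 4 each). The signal was 2.03-fold lower in weaned piglets, a log2 difference of -1.02 (SE 0.26, 95% interval -1.61 to -0.43, limma adjusted p = 0.200). Of all tested probes, 1.03% had a lower difference and 1.72% a smaller p. Without suckling replicate 1 the difference was -1.18 and the limma adjusted p 0.0573, still above the threshold. With normexp background correction and quantile normalization it was -0.61 (limma adjusted p = 0.121). CTGF has a single probe on the array under the naming rule, so no second probe checks it.

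COL1A2 encodes the second chain of type I collagen, the main fibre-forming collagen of the gut wall. Its log2 signal was 4.05, 4.38, 4.79 and 4.68 in suckling replicates 1 to 4 and 3.67, 3.44, 4.07 and 4.44 in weaned replicates 1 to 4. Weaned replicates 1 and 2 lay below all suckling arrays, while weaned replicates 3 and 4 lay within the suckling range. The means were 4.47 ± 0.33 and 3.90 ± 0.44 (SD, n = 4 each), 1.48-fold lower in weaned piglets. The log2 difference was -0.57 (SE 0.26, 95% interval -1.15 to 0.0075, limma adjusted p = 0.410), and COL1A2 also has 1 probe. Without suckling replicate 1 it was -0.71 (limma adjusted p = 0.152). With each array left out it ranged from -0.75 to -0.41 (limma adjusted p from 0.152 to 0.705).

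LUM and DCN encode lumican and decorin, small leucine-rich proteoglycans that bind collagen fibrils and set their spacing and diameter. In the RefSeq gene table they are direct neighbours, with 0 protein-coding genes between them. The brightest LUM probe had log2 signals of 1.96, 2.05, 2.32 and 2.33 in suckling replicates 1 to 4 and 1.05, 1.62, 1.81 and 2.13 in weaned replicates 1 to 4. Weaned replicates 1 to 3 were below all suckling arrays, and weaned replicate 4 lay within the suckling range. The suckling mean was 2.16 ± 0.19 and the weaned mean 1.65 ± 0.45 (SD, n = 4 each), 1.42-fold lower in weaned piglets. The log2 difference was -0.51 (SE 0.23, 95% interval -1.04 to 0.017, limma adjusted p = 0.421). LUM has 9 probes, and all 9 had a lower mean in weaned piglets, with differences from -0.71 to -0.30. For 2 of the 9 the groups did not overlap, beside 2.83% of all tested probes with every weaned array below every suckling array. An unadjusted limma p under 0.05 was found for 5, beside 4.58% of all tested probes lower at that level. The smallest limma adjusted p among the 9 was 0.209. These probes measure the same transcripts and are not independent, with a median pairwise r of 0.80.

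DCN was closer between the groups. Its brightest probe read 5.00, 5.37, 5.68 and 5.24 in suckling replicates 1 to 4 and 4.95, 5.14, 5.33 and 5.34 in weaned replicates 1 to 4 (log2). The groups overlapped, with weaned replicate 1 alone below the suckling range. The means were 5.32 ± 0.29 and 5.19 ± 0.19 (SD, n = 4 each), a log2 difference of -0.13 (SE 0.18, 95% interval -0.55 to 0.28, limma adjusted p = 0.808). All 4 DCN probes had a lower mean in weaned piglets, and the difference was -0.13, -0.20, -0.33 and -0.42 from the brightest probe to the dimmest. For the dimmest probe the groups did not overlap: it read 2.50 to 2.93 in suckling and 2.17 to 2.42 in weaned arrays (log2; limma adjusted p = 0.322).

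SPARC encodes osteonectin, a collagen-binding matricellular glycoprotein that helps collagen fibrils assemble. Its brightest probe read 4.74, 5.25, 5.14 and 5.46 in suckling replicates 1 to 4 and 4.58, 4.73, 4.96 and 5.31 in weaned replicates 1 to 4 (log2). The groups overlapped, with weaned replicates 1 and 2 below suckling replicate 1 and weaned replicate 4 above all suckling arrays except replicate 4. The means were 5.15 ± 0.30 and 4.89 ± 0.32 (SD, n = 4 each), a log2 difference of -0.25 (SE 0.21, 95% interval -0.74 to 0.23, limma adjusted p = 0.670). All 7 SPARC probes had a lower mean in weaned piglets. The differences of the 2 brightest were -0.25 and -0.23, and those of the other 5 lay between -0.73 and -0.55, with a smallest limma adjusted p of 0.278. The choice of probe therefore set the size of the SPARC difference: averaged over its probes it was -0.51, 1.42-fold lower in weaned piglets (limma adjusted p = 0.407).

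FBN1 encodes fibrillin-1, the main protein of the microfibrils that carry elastin and store latent transforming growth factor beta. Its brightest probe read -2.22, -2.03, -1.64 and -2.27 in suckling replicates 1 to 4 and -1.92, -2.35, -2.14 and -2.04 in weaned replicates 1 to 4 (log2). The groups overlapped, with weaned replicate 2 alone below the suckling range. The means were -2.04 ± 0.29 and -2.11 ± 0.18 (SD, n = 4 each), a log2 difference of -0.075 (SE 0.18, 95% interval -0.49 to 0.34, limma adjusted p = 0.899). The other FBN1 probes had differences of -0.46 and 0.052. The 3 probes did not vary together over the arrays, with pairwise r from -0.0054 to 0.25, so FBN1 is uncertain on this array. Its direction also turned when suckling replicate 3 or weaned replicate 2 was left out, to 0.059 and 0.0052.

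**Figure D1:**
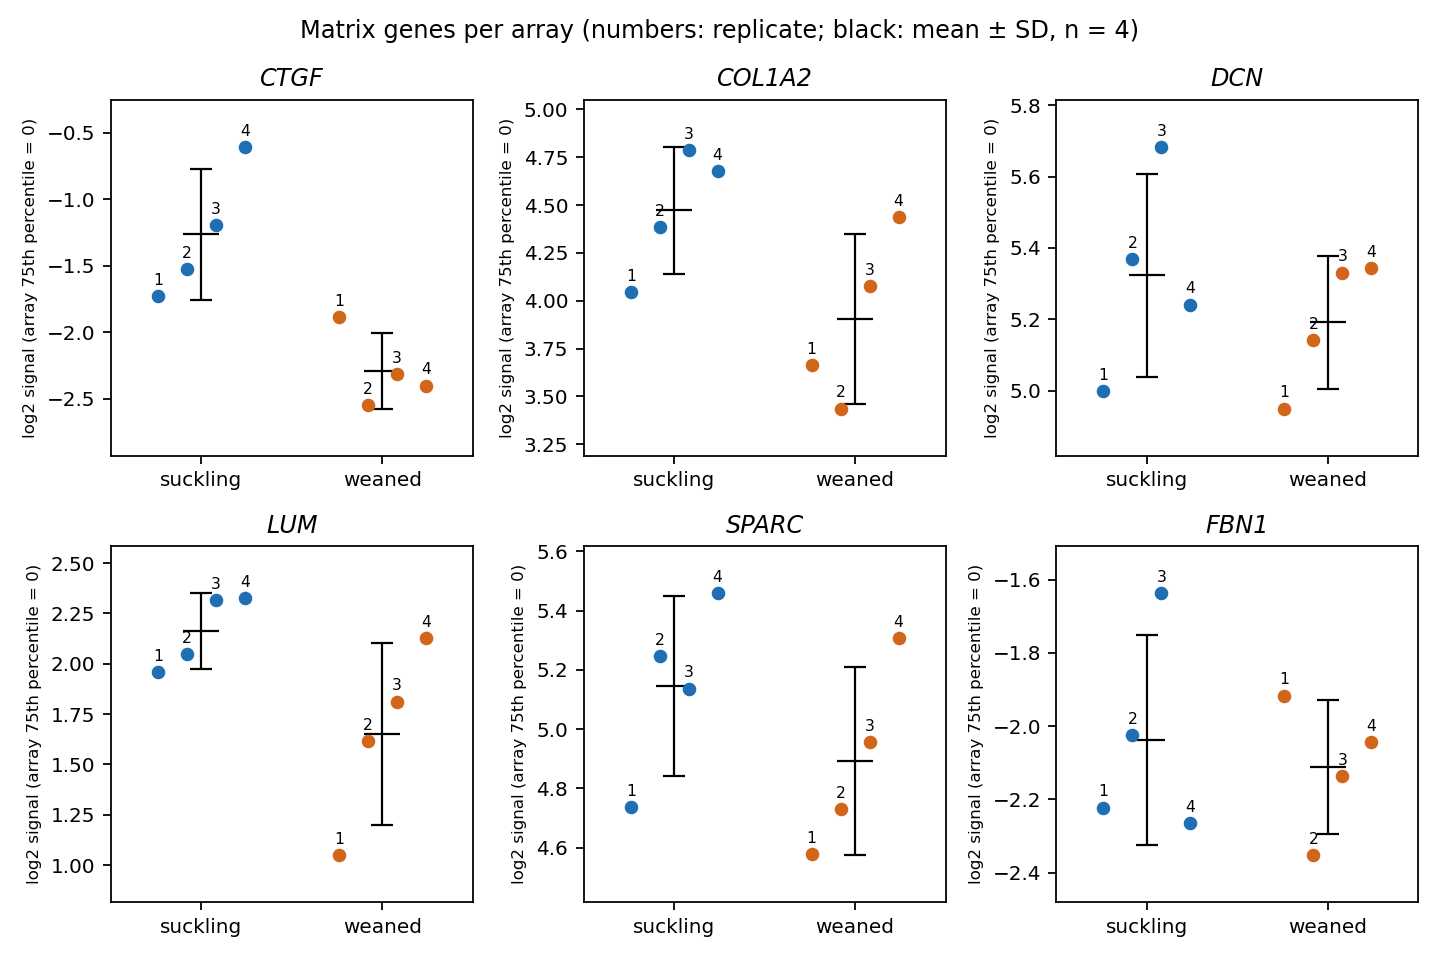
Log2 signal of the brightest probe of each gene on each array, relative to the array's 75th percentile; points are arrays numbered by replicate, black bars the mean ± SD (n = 4 per group), and each panel has its own axis. The groups are apart for CTGF, from -1.73 to -0.61 in suckling and from -2.55 to -1.88 in weaned piglets, and overlap for the other 5 genes.

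Taken probe by probe, 24 of the 25 probes had a lower weaned mean, and the median log2 difference was -0.51. Probes of one gene measure the same transcripts and 16 of the 25 belong to LUM and SPARC, so they are not independent. At an unadjusted limma p under 0.05, 11 of the 25 were called, all of them lower after weaning, beside 4.58% of all tested probes in that direction. For 4 of the 25 the groups did not overlap, beside 2.83% of all tested probes. None passed the threshold over all tested probes, with limma adjusted p-values from 0.200 to 0.919. The 95% interval of the brightest SPARC probe reached from -0.74 to 0.23, so a difference of the size measured for COL1A2 and no difference both lay within it.

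**Figure D2:**
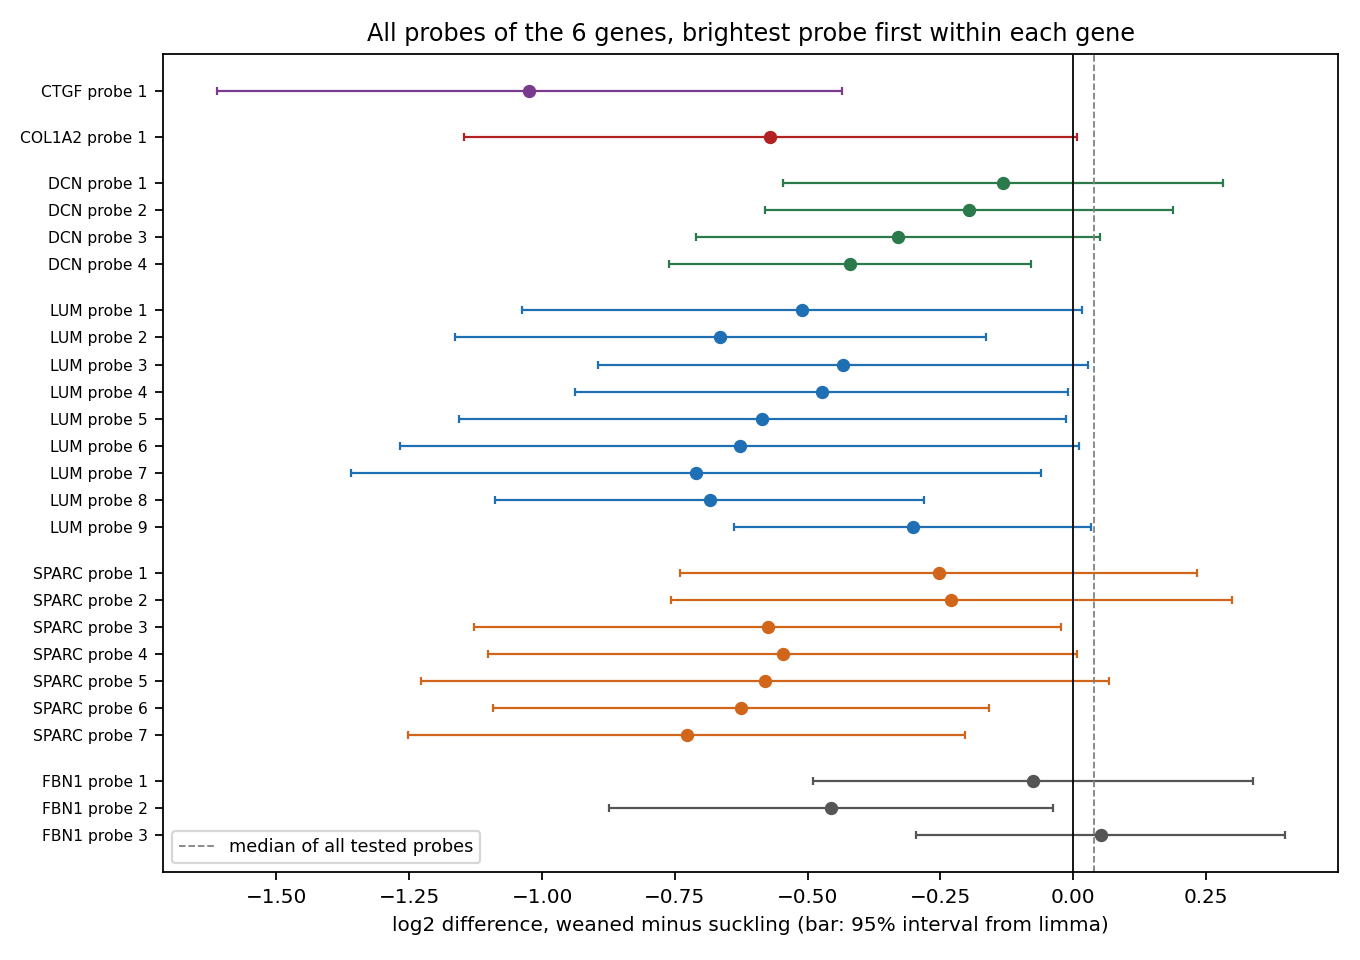
Log2 difference, weaned minus suckling, of all 25 probes of the 6 genes with 95% intervals from limma, ordered from the brightest to the dimmest probe within each gene; the dashed line is the median of all tested probes (0.039). In DCN and SPARC the brightest probes lie nearest to 0, and the third FBN1 probe is the one with a difference above 0.

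The arrays did not rank in the same way in all 6 genes. Suckling replicate 1 had the lowest value of its group in 5 of the 6 genes, and suckling replicates 3 and 4 had the highest in 3 genes each. Among weaned arrays, replicates 1 and 2 had the lowest value in 3 genes each. Weaned replicate 4 had the highest value in 4 genes, and weaned replicate 1 in the other 2, CTGF and FBN1. The mean of the 6 genes after centring each on its own mean was 0.43 and 0.38 in suckling replicates 3 and 4, against 0.16 in suckling replicate 2 and -0.12 in suckling replicate 1. In weaned replicates 1 to 4 it was -0.35, -0.42, -0.13 and 0.042. Suckling replicate 1 thus stood at the level of weaned replicate 3, and weaned replicate 4 between suckling replicates 1 and 2. Without suckling replicate 1 the log2 differences of LUM, SPARC, DCN and FBN1 were -0.58, -0.39, -0.24 and -0.14, with limma adjusted p-values from 0.219 to 0.713. The median difference of the 6 genes was then -0.48, and 3 of the 6 had an unadjusted limma p under 0.05, beside 9.30% of tested probes lower in weaned piglets at that level. None of the 6 passed the adjusted threshold in those 7 arrays, where 1.82% of tested probes did.

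COL1A2, LUM and SPARC followed each other most closely over the 8 arrays. As a description, Pearson's r was 0.86 between COL1A2 and LUM, 0.85 between COL1A2 and SPARC and 0.84 between LUM and SPARC. With each group's mean removed, r was 0.76, 0.84 and 0.81 in this order, so the likeness also held between animals of one group. Spearman's rho was 0.93, 0.83 and 0.90, and without the 2 arrays farthest from the median r was 0.95, 0.75 and 0.69. DCN came near these values: with group means removed its r was 0.74 with COL1A2, 0.69 with LUM and 0.59 with SPARC. The values for CTGF were lower: with group means removed its r was 0.36 with COL1A2, -0.056 with LUM and 0.31 with SPARC. FBN1 did not follow LUM or SPARC, with r of 0.085 and 0.086 over the 8 arrays. All these values come from the same 8 arrays and 1 scaling per array.

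**Figure D3:**
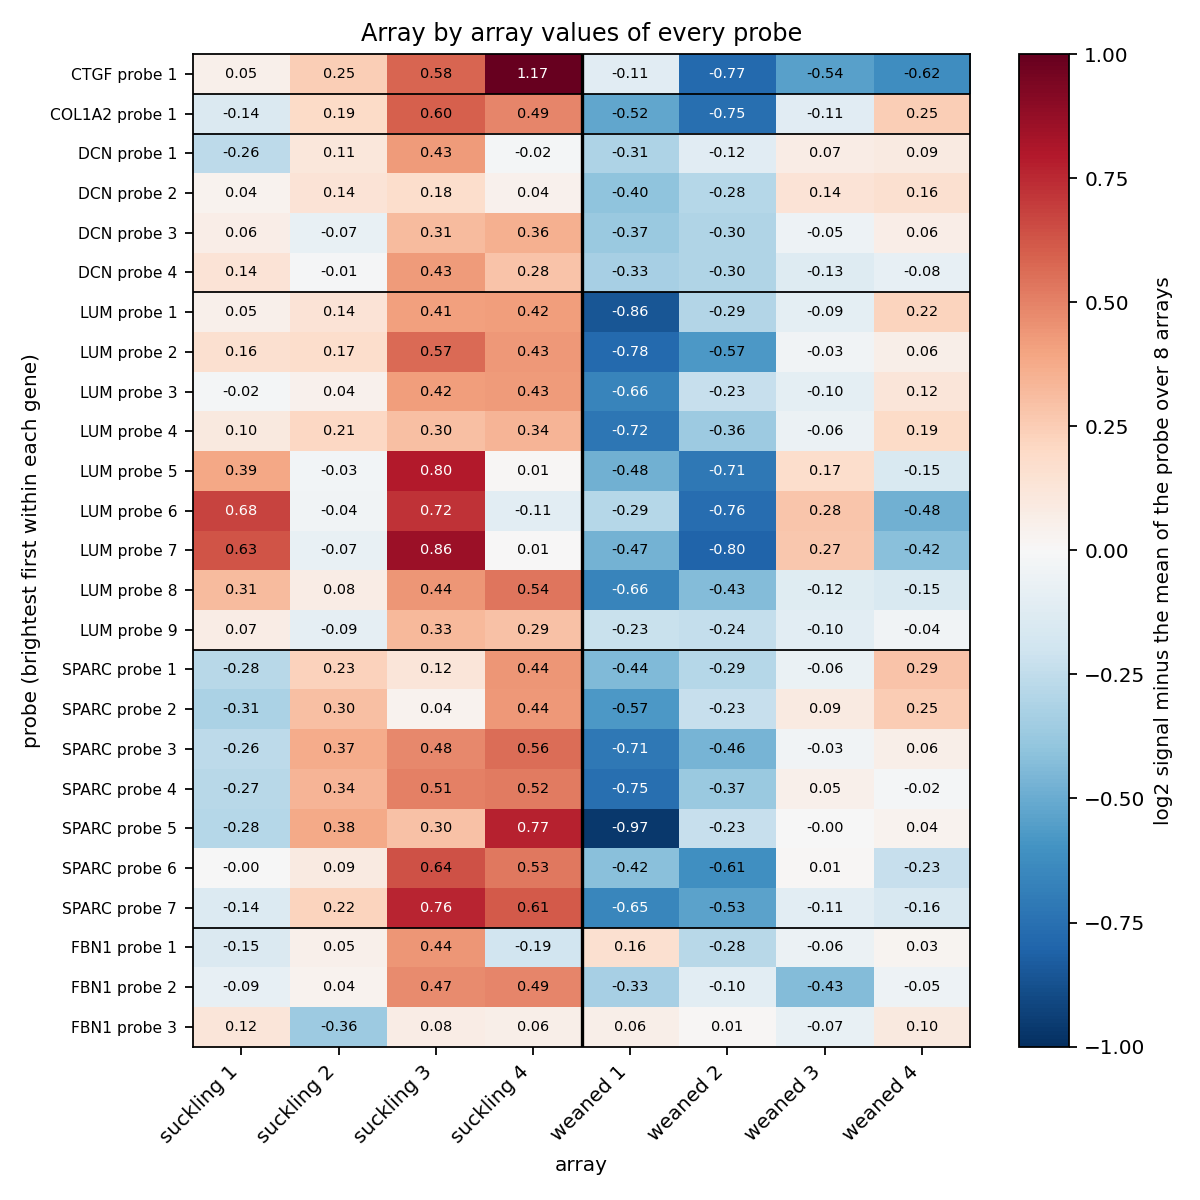
Log2 signal of each of the 25 probes on each array after subtraction of the probe's mean over the 8 arrays; rows are probes from the brightest down within a gene, columns are arrays, and the colour scale runs from -1 to 1. Suckling replicates 3 and 4 are above the mean for most probes, weaned replicates 1 and 2 below it, and suckling replicate 1 lies at or below 0 for all 7 SPARC probes.

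Genes outside the 6 with the most similar profile were named by the highest Pearson r over the 8 arrays among 2767 other tested genes. For the mean of the 6 genes these were AK3 (r = 0.95), NFYB (0.93), IGFBP7 (0.92), CPE (0.92) and ID2 (0.90). Their log2 differences ranged from -0.65 for NFYB to -0.29 for AK3, and none passed the threshold. For CTGF alone they were PBX2 (r = 0.96), HSD17B13 (0.92), FRS2 (0.92), CDC37L1 (0.91) and DEFB129 (0.91). The CTGF set did not share a gene with the first. With 2767 candidates and 8 arrays, the highest of such values are large whatever the genes are.

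The other genes of the matrix were taken from fixed lists, with 1 probe per gene. From here on, a pair of values with ± gives the suckling mean first and the weaned mean after it, in log2 signal with its SD (n = 4 each). No gene of the 13 lists, 122 tested genes in all, passed the threshold over all tested probes. Of the other collagens, 5 of 6 tested had a lower weaned mean, and their median difference was -0.31. COL5A3, a minor fibrillar chain, averaged -2.18 ± 0.35 with the sow and -2.71 ± 0.14 after weaning, and COL5A2, a chain that nucleates type I collagen fibrils, was 2.33 ± 0.27 and 2.05 ± 0.21 (SD, n = 4 each). Genes that fold, process and cross-link collagen were lower in weaned piglets in 4 of 4 tested, with a median of -0.34. Among them LOX, the lysyl oxidase that starts collagen cross-links, was 1.15 ± 0.30 and 0.76 ± 0.22, and FKBP10, a collagen chaperone, was 2.42 ± 0.15 and 2.04 ± 0.41.

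Other proteoglycans and matrix glycoproteins had a lower mean in 8 of 11 tested genes, with a median of -0.36. POSTN encodes periostin, a matricellular protein that promotes collagen cross-linking. It read 4.10, 4.02, 4.44 and 4.04 in suckling replicates 1 to 4 and 3.45, 2.92, 3.71 and 3.59 in weaned replicates 1 to 4 (log2). The groups did not overlap, the log2 difference was -0.73 (SE 0.20, limma adjusted p = 0.225), and all 6 POSTN probes had a lower mean in weaned piglets. MGP, a matrix protein that inhibits calcification, was 5.30 ± 0.11 and 4.72 ± 0.43 (limma adjusted p = 0.336), with 5 of 5 probes lower. SPP1, osteopontin, named after its value was seen, was higher by 1.04 in weaned piglets (limma adjusted p = 0.602).

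Lists of signalling genes were closer to an even split than the matrix lists, a difference that was not tested. Of 15 tested ligands, receptors and mediators of transforming growth factor beta, 9 had a lower and 6 a higher weaned mean, and the median was -0.018 (-0.065 to 0.039 with each array left out). TGFB3, a ligand, averaged -0.53 ± 0.16 with the sow and -0.096 ± 0.23 after weaning (limma adjusted p = 0.354). TGFB1 had a log2 difference of -0.036 and SMAD7, an inhibitor induced by the pathway, of -0.43; both were named after their values were seen. In the YAP and TEAD list 4 of 7 genes had a lower mean, with a median of -0.12 (-0.27 without suckling replicate 1). TEAD4, a partner factor of YAP, was -1.35 ± 0.17 and -2.03 ± 0.18 (limma adjusted p = 0.167) with no overlap between the groups, but its second probe pointed the other way. LATS2, a kinase that restrains YAP, was 1.29 ± 0.53 and 0.88 ± 0.19.

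Matrix receptors were split 7 lower to 5 higher, with a median of -0.030. ITGB5, an integrin subunit that binds vitronectin, had log2 signals of 3.92 to 6.09 in suckling and 3.90 to 4.15 in weaned arrays. The ITGB5 log2 difference was -1.13 (limma adjusted p = 0.348). Suckling replicate 1, at 3.92, lay within the weaned range, and without it the difference was -1.54 (limma adjusted p = 0.0519). ITGB6, an epithelial integrin subunit, was -4.99 ± 0.43 and -4.20 ± 0.74. It was dim, well above background on only 3 suckling arrays, and its log2 difference of 0.79 was 0.086 with normexp background correction. Fibroblast lineage genes that are not fibre proteins were split evenly, 6 lower and 6 higher, with a median of -0.011. IGFBP7, a secreted binding protein of matrix and vessels, averaged 6.52 ± 0.25 with the sow and 5.93 ± 0.25 after weaning (limma adjusted p = 0.278) without overlap, and its 3 probes were all lower. PI16, a marker of adventitial fibroblasts, was -3.13 ± 0.41 and -3.62 ± 0.39. Its log2 difference of -0.49 was -0.11 with normexp background correction. THY1, a surface marker of fibroblasts, had a log2 difference of 0.028 (limma adjusted p = 0.967).

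**Figure D4:**
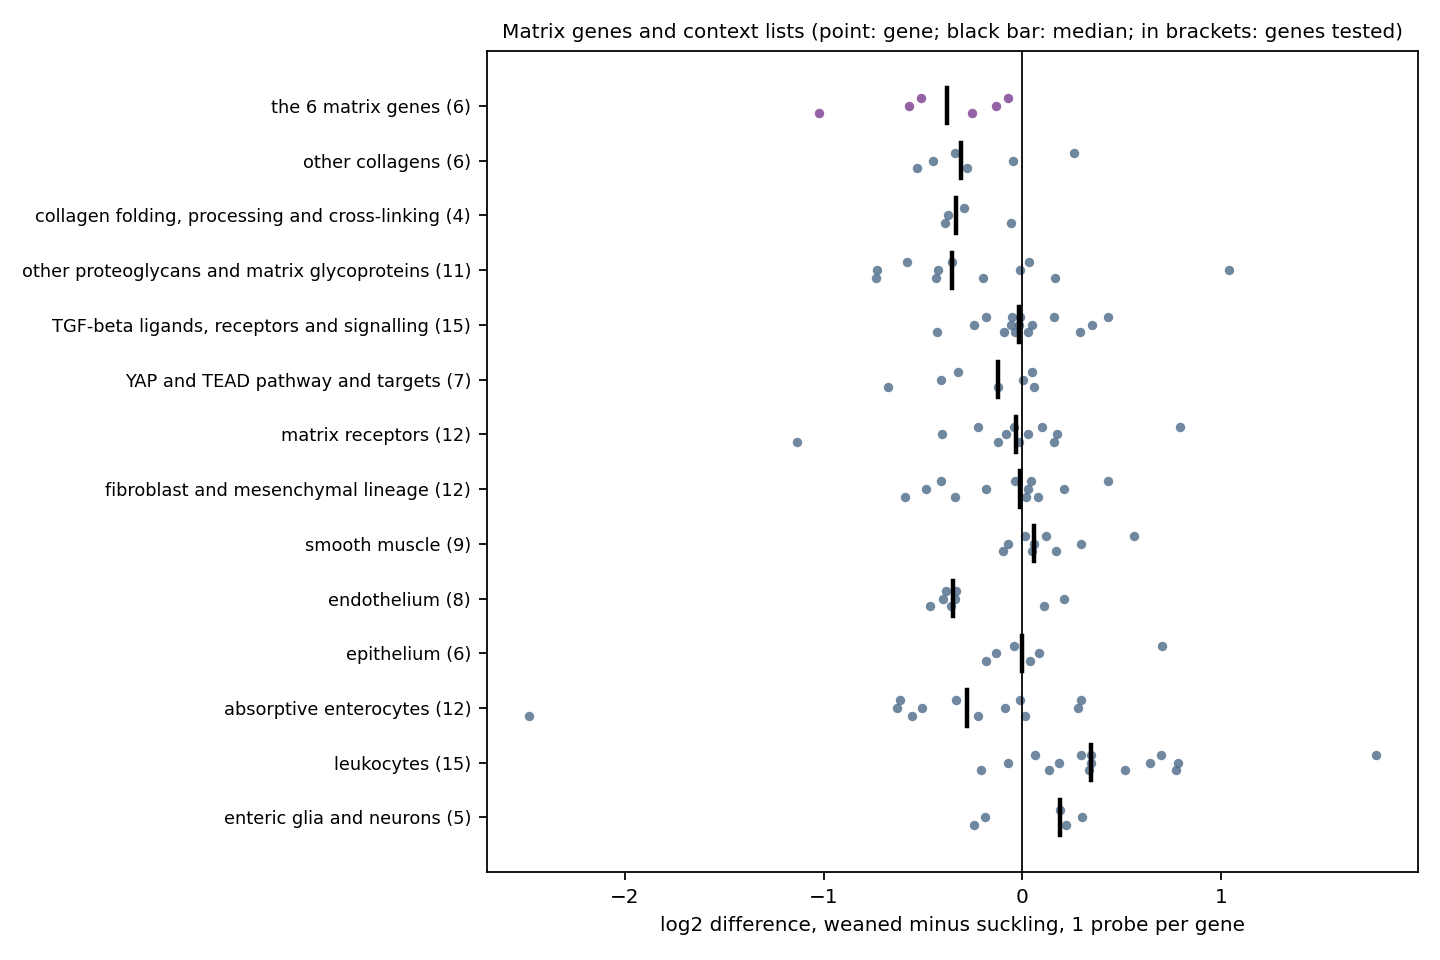
Log2 difference, weaned minus suckling, of each tested gene in the 6 matrix genes and in 13 fixed lists; each point is a gene, the black bar the list's median, and the number in brackets the genes tested. Medians lie at -0.38 for the 6 genes and between -0.36 and -0.31 for the 3 other matrix lists, and at -0.018, -0.030 and -0.011 for the growth factor, receptor and fibroblast lineage lists. Endothelium, at -0.35, and absorptive enterocytes, at -0.28, lie near the matrix lists.

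Markers of other cell types had lower or higher weaned means, but no gene of these lists passed the threshold. Their part in the result was not tested. Each list was summed over its tested genes on the linear scale, as multiples of the array's 75th percentile, so bright genes weigh most. Endothelial genes summed to 17.0 to 18.8 in suckling and 15.0 to 15.2 in weaned arrays, 6 of 8 genes had a lower mean and the median difference was -0.35. CDH5, the cadherin of vessel walls, was 0.97 ± 0.17 and 0.57 ± 0.14, and CLDN5, a claudin of vessel junctions, was -0.88 ± 0.34 and -1.34 ± 0.17. Smooth muscle genes, which share the mesenchymal layers with the matrix, summed to 227 to 472 and 129.8 to 446, with 7 of 9 higher and a median of 0.060. The sign of that median was not stable: it was -0.045 without suckling replicate 1, -0.34 with array weights and between -0.15 and 0.46 with each array left out. MYOCD, a regulator of smooth muscle genes, was -1.32 ± 0.52 and -0.76 ± 0.50, but its second probe pointed the other way. ACTA2, smooth muscle actin, was 4.70 ± 0.50 and 4.99 ± 0.76, with 1 of its 4 probes lower in weaned piglets.

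Leukocyte genes summed to 46.8 to 188 in suckling and 253 to 357 in weaned arrays, with 13 of 15 higher and a median of 0.35. LYZ, lysozyme, was 6.15 ± 1.41 and 7.93 ± 0.26, and FCER1G, a chain of Fc receptors, was 2.32 ± 0.13 and 3.09 ± 0.49. On all arrays but suckling replicate 4, LYZ alone made up most of the leukocyte sum. It read 4.22 to 7.25 in suckling and 7.68 to 8.27 in weaned arrays (log2), so the gap between the sums largely reflects this gene. Epithelial genes summed to 464 to 482 and 524 to 707, with 3 of 6 higher and a median of -0.0013. KRT8, a keratin, made up a large part of these sums and was 7.93 ± 0.22 and 8.64 ± 0.28. The other tested genes of this list had log2 differences from -0.18 to 0.086. HNF4A, an epithelial transcription factor, was -0.68 ± 0.25 and -0.87 ± 0.15. The epithelial median was -0.18 without suckling replicate 1. Genes of absorptive enterocytes summed to 679.9 to 4599 and 1169 to 2473, with 9 of 12 lower and a median of -0.28 (-0.74 without suckling replicate 1). The lowest of these sums was that of suckling replicate 1, where APOC3 read 4.34 against 8.94 to 9.71 in the other suckling arrays; APOC3 was 8.03 ± 2.48 and 5.55 ± 1.59, and APOA4, another apolipoprotein, was 8.72 ± 1.01 and 8.16 ± 0.63. Glial and neuronal genes summed to 4.94 to 8.66 and 5.84 to 7.78 with 3 of 5 higher and a median of 0.19 (-0.12 without suckling replicate 1); UCHL1, a neuronal hydrolase, was 1.98 ± 0.35 and 2.28 ± 0.22, and SOX10, a glial factor, was -3.23 ± 0.15 and -3.01 ± 0.28.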

How the data were processed

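Total RNA of 8 jejunal samples (RNA integrity number at least 7.0) was amplified and labelled with Cy3, per the labels' protocols. The deposited scanner files hold processed intensity, from which Agilent Feature Extraction 10.7 (10.7.3.1 per the file headers) had subtracted background, median spot intensity and flags. The deposited table holds log2 values of the same arrays with the same order of probes; their scale follows a common distribution (median 5.50 in each column), by a step not given in the sources used here, and it served as an alternative.

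Control spots were left out, outlier spots set to missing, spots of a probe averaged, log2 taken and each array's 75th percentile subtracted. Probes well above background on at least 4 arrays with at least 3 values per group were tested with limma 3.58.1 in R 4.3.3 (lmFit, eBayes, two-sided), with Benjamini-Hochberg adjustment over 30554 probes; the fit was checked on simulated data. RefSeq accessions, matched without versions in a Sscrofa11.1 gene table used for names and neighbours alone, named 6924 of 8091 RefSeq probes. The number of arrays limits precision. Members, lists and tests were chosen with earlier results of these data known. Named genes are the members, the 2 genes of smallest p per list, as no list had a gene past the threshold, and the 5 most similar profiles. One gene that this rule names is not reported here. Alternatives were 4 scalings or background corrections, the deposited table, 2 filters, outlier spots kept, 2 model options, the replicate number as a block, each array left out, and the mean over probes.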

Additional observations from a re-analysis of the deposited data

Results flagged for a closer look

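In groups of 4 arrays, a value was singled out when its gap to the nearest other array was most of the group's range (Dixon's test at its critical value for 4 samples). This held for 4 of 66 groups, and chance gives about 1 in 20. ITGB6, an integrin subunit, was highest in weaned replicate 2 (gap 0.846 of the range). APOC3 and APOA4, apolipoproteins of absorptive enterocytes, were lowest in suckling replicate 1 (0.856 for both). The 75th percentile of the array was lowest in weaned replicate 1 (0.925). None of the 6 matrix genes had such an array in either group.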

How the results depend on the processing

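None of the 6 matrix genes passed the adjusted threshold under any of the alternatives tried, and the direction of CTGF, COL1A2, DCN, LUM and SPARC was the same under all of them. The median difference of the 6 genes lay between -0.53 and -0.38 under other processing and between -0.53 and -0.23 with each array left out. The limma adjusted p of CTGF ranged from 0.0573 without suckling replicate 1 to 0.455 without weaned replicate 2, and was 0.0615 with array weights; its difference, -1.02, was -0.61 with normexp background correction. The number of probes past the threshold over the whole array, 54, was 324 with array weights, 0 with the replicate block and 9 to 553 with each array left out; the cause was not tested. Of the 54, 1 was lower in weaned piglets; with normexp background correction 9 of 75 were, as were 63 of 324 with array weights and 179 of 553 without suckling replicate 1. With each array left out DCN ranged from -0.24 to -0.011 and SPARC from -0.39 to -0.15. COL1A2 ranged from -0.75 to -0.41 and LUM from -0.67 to -0.31, with limma adjusted p-values up to 0.705 and 0.723. The difference of FBN1 ranged from -0.15 to 0.059 with each array left out, and that of ACTA2 was -0.10 with array weights. The differences of COL5A3, TEAD4 and SOX10, -0.53, -0.68 and 0.22, were -0.23, -0.32 and 0.016 with normexp background correction. With each array left out, list medians changed sign for matrix receptors (-0.072 to 0.026), the YAP and TEAD list (-0.27 to 0.0047) and epithelium (-0.18 to 0.11). They also did so for absorptive enterocytes (-0.74 to 0.082) and glia and neurons (-0.12 to 0.25). The same held for the transforming growth factor beta list (-0.065 to 0.039) and smooth muscle (-0.15 to 0.46). Whether replicate numbers pair the arrays by litter could not be settled with 4 numbers and no litter labels. Deviations of same-numbered arrays correlated at 0.368, 0.008, 0.186 and -0.018. For 3 of 8 arrays the best partner in the other group had their own number. With the replicate block the CTGF adjusted p was 0.270, and no call of the 6 genes at the adjusted threshold changed. Slide and group coincide, so no value within a slide can be had.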

Other observations

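The probes of a matrix gene did not all give the same size of difference. Within SPARC and DCN the difference between weaned and suckling piglets was larger for dimmer probes, with Spearman's rho between signal and difference of 0.93 over 7 SPARC probes and 1.00 over 4 DCN probes. Over 9 LUM probes rho was 0.13. Among 165 named genes with at least 4 tested probes and a median difference below 0, 5 (3.03%) had a rho of at least 0.9, and the median was 0. The 165 include the matrix genes, and SPARC and DCN are themselves among the 5. A high rho comes more easily with few probes, and the 165 genes differ in their number of probes. The share therefore does not say how rare the DCN order is. The differences of the probes spanned 0.498 in SPARC and 0.289 in DCN, and the median span in those 165 genes was 0.349. Over all tested probes the median difference was 0.061 among the 7639 dimmest and 0.065 among the 7639 brightest. Signal depends on the probe as well as on the transcript.

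The 9 LUM probes also fell into 2 array patterns, a split made after seeing the values. In 3 probes (the fifth to the seventh by signal) suckling replicate 1 lay above suckling replicates 2 and 4, while in the other 6 it did not. The 3 probes correlated with each other over the 8 arrays at 0.93 or more and with the other 6 at 0.39 to 0.83. The other 6 correlated with each other at 0.78 or more, so values within and between the sets overlapped. Both sets had a lower mean in weaned piglets, from -0.71 to -0.58 in the 3 and from -0.68 to -0.30 in the other 6.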
